A study of Mus musculus with 4 samples.

Results

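The genes described are the 4 mouse metallothionein genes Mt1, Mt2, Mt3 and Mt4, the metal-sensing transcription factor gene Mtf1, the zinc exporter family genes Slc30a1 and Slc30a10, and the importer genes Slc39a4 and Slc39a14. They are 9 of 19087 genes measured, and their members are the 24 probes whose platform annotation gives one of these symbols and no other, of 33653 probes with 1 symbol. The genes were chosen by the mean log2 ratios of this same comparison, above all those of Mt2 and Mt1, together with their known roles, so the ratios are given as a description and without a test. Mt1 had 11 probes, Mt2, Mt3 and Slc39a4 had 1 each, and the other 5 genes had 2 each.

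Liver RNA of resveratrol-treated Wrn mutant mice was set against liver RNA of wild-type mice without treatment on 4 two-colour arrays, on which both RNAs, carrying the dyes Cy5 and Cy3, compete for the same probes. All animals were male C57Bl/6 mice aged 9 months, and the mutants carry a Wrn protein, a RecQ helicase, whose helicase domain does not function. The labels give no dose or duration for resveratrol, a plant polyphenol. A different mutant was on each of arrays 1 to 4, whereas wild-type animal 2 served arrays 1 and 3 and wild-type animal 4 served arrays 2 and 4, so that only 2 wild-type mice stand behind all ratios. Cy5 labelled the mutant RNA of the first pair of arrays, and Cy3 that of arrays 3 and 4. Genotype and treatment differed together and cannot be told apart.

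Metallothioneins are small, cysteine-rich proteins that bind zinc, copper and toxic metals such as cadmium. In liver, transcription of Mt1 and Mt2 responds to zinc, which the factor encoded by Mtf1 senses, and also to glucocorticoids, inflammation and fasting. The MTF1 protein binds metal response elements in the promoters of these genes and of Slc30a1, whose product exports zinc across the plasma membrane. Mt3 is known mainly from brain and Mt4 from stratified squamous epithelia.

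The promoters of Mt2 and Mt1 are shown because these genes had the extreme ratios, that of Mt3 because it lies in the same cluster with a ratio near 0, and that of Slc30a1 because it is a textbook target of MTF1. The sequences are those of RefSeq, 250 bases before to 50 bases after the annotated start site. Of the 9 genes 7 had an entry, Slc39a4 and Slc39a14 being the exceptions. Capitals mark the core of the metal response element, searched as TGCACNC or TGCGCNC on both strands.
Mt2 promoter, GRCm38.p6, chr8:94172368-94172667, + strand: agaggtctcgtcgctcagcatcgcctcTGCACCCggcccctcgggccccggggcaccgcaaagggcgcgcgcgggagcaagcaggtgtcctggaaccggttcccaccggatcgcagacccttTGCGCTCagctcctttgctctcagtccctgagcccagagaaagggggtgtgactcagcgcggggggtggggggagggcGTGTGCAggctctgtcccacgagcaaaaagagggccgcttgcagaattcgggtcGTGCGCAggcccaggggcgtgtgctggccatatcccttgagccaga
Mt1 promoter, GRCm38.p6, chr8:94178839-94179138, + strand: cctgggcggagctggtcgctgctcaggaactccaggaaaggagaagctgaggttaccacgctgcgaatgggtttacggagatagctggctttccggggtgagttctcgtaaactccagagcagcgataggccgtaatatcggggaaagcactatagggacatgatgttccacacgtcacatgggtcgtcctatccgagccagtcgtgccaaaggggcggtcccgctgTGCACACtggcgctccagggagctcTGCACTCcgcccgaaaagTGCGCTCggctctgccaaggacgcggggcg
Mt3 promoter, GRCm38.p6, chr8:94152357-94152656, + strand: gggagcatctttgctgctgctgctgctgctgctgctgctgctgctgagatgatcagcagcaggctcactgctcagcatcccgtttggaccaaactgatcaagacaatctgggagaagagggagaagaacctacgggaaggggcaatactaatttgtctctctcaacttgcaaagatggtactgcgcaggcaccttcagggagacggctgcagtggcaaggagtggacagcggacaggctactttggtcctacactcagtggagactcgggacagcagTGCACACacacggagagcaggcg
Slc30a1 promoter, GRCm38.p6, chr1:191906531-191906830, + strand: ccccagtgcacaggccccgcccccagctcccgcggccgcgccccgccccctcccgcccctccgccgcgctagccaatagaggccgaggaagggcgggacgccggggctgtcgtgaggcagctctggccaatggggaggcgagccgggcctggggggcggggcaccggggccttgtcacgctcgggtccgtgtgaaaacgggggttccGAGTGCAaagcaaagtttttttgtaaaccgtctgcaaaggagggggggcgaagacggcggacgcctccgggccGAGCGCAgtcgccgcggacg

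The Mt2 window held 4 matches to that core and the Mt1 window 3, whereas 0.517% of all 32851 promoter entries of the same length held 4 or more and 1.97% held 3 or more. The 3 matches of Mt1 lay between bases -23 and 26 from the annotated start site, which counts as 0. Those of Mt2 were spread from base -223 to base 10. Whether the annotated start is the one used in liver was not tested, and bases outside the windows were not searched. Slc30a1 had 2 matches and Slc30a10 had 3, of which 2 overlap on opposite strands. Mt3 and Mt4 had 1 each, which 25.7% of all promoters also reached. The Mtf1 window held 0. The antioxidant response element, searched as TGACNNNGC on both strands, matched once in Mt2 (TGACTCAGC, at bases -79 to -71) and once in Slc30a1, and in 12.4% of all promoters, with no overlap with a metal response core. A match of letters is a description and not a site.

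The ratios are on the log2 scale as deposited, and they compare the 2 RNAs of an array, so they hold no expression level. A negative value likely means lower in the treated mutants, because the sample titles name the mutants first, as compared to wild type. The mutants are in channel 2 on every array, and the labels do not state the direction of the ratio. No label says if the dye-swapped arrays 3 and 4 share the direction of arrays 1 and 2, and over all probes the correlation of arrays with opposite dyes ran from -0.18 to 0.11, while that of arrays with the same dyes was 0.19 (arrays 1 and 2) and 0.21 (arrays 3 and 4). The values are used as deposited. With the signs of arrays 3 and 4 turned, the means of Mt1 and Mt2 became 0.68 ± 5.42 and 0.73 ± 7.11 (SD, n = 4 arrays). Then 0 of 19087 genes passed limma's adjusted threshold of 0.05 (1518 had an unadjusted p under 0.05). As deposited, 47 genes passed, and a trend of neighbouring spots held 12.2% to 34.1% of an array's variance. No intensities were analysed here, so it is not known which probes were above background, and liver markers cannot check the tissue from ratios.

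Mt2 stood at -4.80 on array 1, -6.02 on array 2, -7.09 on array 3 and -6.63 on array 4. Its mean of -6.14 ± 0.99 (SD, n = 4 arrays) was the lowest of all 19087 genes and corresponds to a 70.4-fold lower signal. The size ran from 27.9-fold on array 1 to 137-fold on array 3, so the 4 arrays had one sign but differed several times over in fold. The value rests on 1 probe, which ranked between 3 and 11 from the lowest of 43379 probes on each array.

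Mt1, whose product shares the metal-binding role of the Mt2 protein, had means over its 11 probes of -3.80 on array 1, -4.02 on array 2, -6.70 on array 3 and -3.82 on array 4. Their mean was -4.58 ± 1.42 (SD, n = 4 arrays), at rank 6 from the lowest of 19087 genes. Array 3 stood apart from the other 3 arrays, which lay within -4.02 and -3.80. Without array 3 the mean was -3.88 ± 0.12 (SD, n = 3 arrays). Array 3 also had the widest spread over all probes, with an SD of 0.90 against 0.66 to 0.80 on the others. The SD of Mt1 over the 4 arrays, 1.42 as deposited, was 0.89 with arrays scaled to the same spread and 0.61 after quantile normalization.

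Of the 11 Mt1 probes, 10 are annotated to the transcript record NM_013602 and 1 to BC027262, and they did not behave alike. The probe of BC027262 stood at 0.36, 0.38, -0.06 and -0.76 on arrays 1 to 4, with a mean of -0.02. All 10 probes of NM_013602 had means well below 0, from -6.12 to -4.07. Over those 10 probes alone the Mt1 means were -4.21, -4.46, -7.37 and -4.13 on arrays 1 to 4, which gives -5.04 ± 1.56 (SD, n = 4 arrays). Averaging each record first, so that both records count equally, gave -2.53 ± 0.82. Which of the 2 records stands for the Mt1 transcript cannot be told from the ratios.

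**Figure D1:**
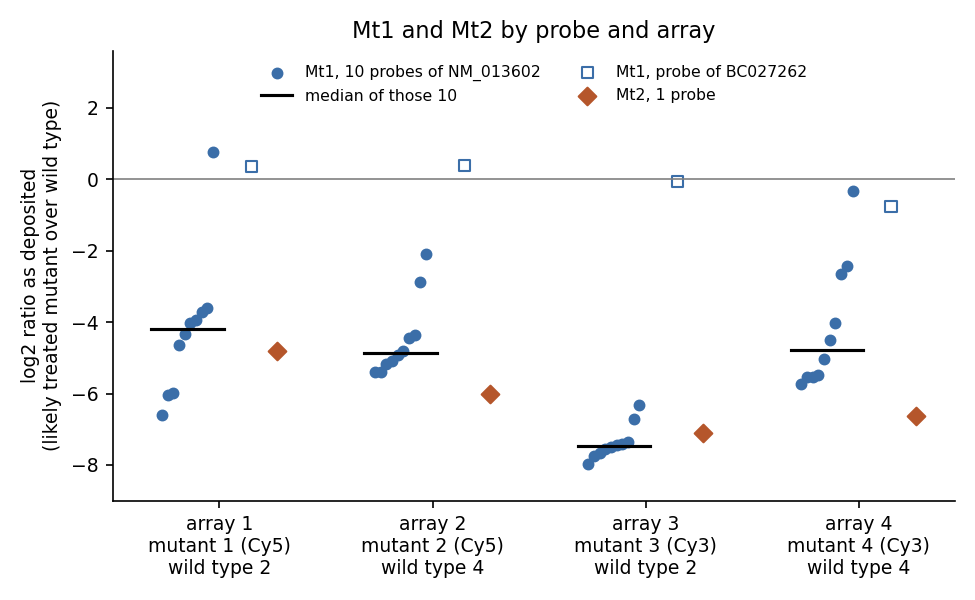
Log2 ratio as deposited (vertical axis) of each Mt1 and Mt2 probe on the 4 arrays (horizontal axis, with the mutant, its dye and the wild-type animal). The 10 Mt1 probes of NM_013602 lie below 0 except 1 probe on array 1 at 0.77, their medians (black lines) run from -7.48 to -4.18, and the probe of BC027262 stays between -0.76 and 0.38.

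On array 1 the 10 NM_013602 probes had a lowest value of -6.61, a median of -4.18 and a highest of 0.77. On array 2 these were -5.41, -4.86 and -2.08, on array 3 -7.96, -7.48 and -6.33, and on array 4 -5.73, -4.78 and -0.32. Array 3 was thus both the lowest and the tightest, and its highest probe lay below every probe of array 2 and of array 4.

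The highest values were single spots that differed from the same probe on the other arrays. The probe in row 482, column 65 of the array read 0.77 on array 1 but -5.40, -6.70 and -5.49 on arrays 2 to 4. The probe in row 11, column 63 read -0.32 on array 4 but -6.61, -5.41 and -7.96 on arrays 1 to 3, and its value on array 1 was the lowest of all 43379 probes there. The running median of the neighbouring spots was 0.44 and 0.51 at these 2 places on those arrays. Another 2 probes, in row 265 and row 154, were higher than the rest on array 2 (-2.88 and -2.08). On array 4 (-2.65 and -2.44) they were higher than all but the row 11 probe. Both are arrays with wild-type animal 4. On arrays 1 and 3 the same 2 probes lay among the others, at -3.94 and -4.02 and at -7.50 and -7.75. The annotation does not say whether these 10 probes share one sequence.

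On arrays 1, 2 and 4, but not on array 3, the Mt1 probes spread more widely than those of most genes. The SD over the 10 Mt1 probes was 2.05, 1.11, 0.49 and 1.79 log2 units on arrays 1 to 4. Among the 216 sets of 10 or more probes of 1 gene and 1 record, the median SD was 0.67, 0.52, 0.71 and 0.49. A few genes had more than 1 such set. Mt1 thus ranked 1, 7, 158 and 1 of these 216 sets by its spread on arrays 1 to 4. Of the 9100 spot values of these sets, 31 lay more than 3 log2 units from their set's median on the array, and Mt1 had 2 of them. Mt1 also had the lowest mean ratio of these sets, the next being -2.44.

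The Mt2 probe lay inside the range of the NM_013602 probes of Mt1 on arrays 1 and 3 and below all 10 on arrays 2 and 4. It differed from their median by -0.62, -1.16, 0.38 and -1.86 on arrays 1 to 4, so it was the higher of the pair on array 3 alone. Mt1 and Mt2 are close paralogs, and how far the probes of one bind RNA of the other was not tested. Among the 20 lowest of the 43379 probes on each array, Mt1 and Mt2 together made up 9, 7, 11 and 6 on arrays 1 to 4.

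Mt3 and Mt4 lie next to Mt2 and Mt1 in one cluster on chromosome 8. The ratios of Mt3 and Mt4 lay much closer to 0, with the mean of Mt4 at rank 1954 from the lowest. Mt3 read 0.31, 0.47, -0.22 and -0.59 on arrays 1 to 4, with a mean of -0.01 ± 0.49 (SD, n = 4 arrays) that ran from -0.17 to 0.19 when 1 array was left out. Mt4 read 0.23, -0.09, -0.95 and -0.76, with a mean of -0.39 ± 0.55 (-0.21 without array 3 and -0.60 without array 1), and its 2 probes had means of -0.55 and -0.24. Neither gene had one sign on all arrays, and a ratio near 0 is also what a probe without signal in both channels can give.

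Mtf1, the metal sensor, read -0.50, 0.15, -0.38 and 0.67 on arrays 1 to 4, with a mean of -0.02 ± 0.54 (SD, n = 4 arrays). Its values changed sign between arrays, and its mean ran from -0.24 to 0.15 when 1 array was left out. The means of its 2 probes were -0.12 and 0.08. The first of them ran from -1.09 on array 1 to 1.16 on array 4 while the other stayed between -0.20 and 0.27. The running median of the spots around that first probe was -1.2 on array 1 and 0.71 on array 4.

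Slc30a1 read 0.03, -0.13, -1.27 and -0.67 on arrays 1 to 4, with a mean of -0.51 ± 0.59 (SD, n = 4 arrays). Its value on array 3 came from 1 of its 2 probes, at -2.78, where the other probe read 0.23. Without array 3 the mean was -0.26. The running median of the spots around the low probe was -1.24 on that array. Slc30a10, which encodes a family member known from human disease as a manganese exporter, read -0.13, -0.38, 0.76 and 0.35, with a mean of 0.15 ± 0.51. Both probes were positive on arrays 3 and 4, and leaving out 1 array moved its mean to between -0.05 (without array 3) and 0.33 (without array 2).

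Slc39a4 encodes the zinc importer that is mutated in the human zinc deficiency disorder acrodermatitis enteropathica, and is known mainly from intestine. It read 0.03, -0.71, -0.24 and -0.10 on arrays 1 to 4, with a mean of -0.25 ± 0.32 (SD, n = 4 arrays), or -0.10 without array 2. Slc39a14 encodes an importer of zinc, manganese and iron that interleukin-6 induces in liver. It read -0.09, -0.21, -0.65 and -0.79, with a mean of -0.44 ± 0.34, and was the one gene outside Mt1 and Mt2 with a negative gene mean on every array. Its 2 probes did not both share that sign on arrays 1 and 2, where one read 0.39 and -0.43 and the other -0.57 and 0.01.

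As deposited, the genes in order from the lowest mean were Mt2, Mt1, Slc30a1, Slc39a14, Mt4, Slc39a4, Mtf1, Mt3 and Slc30a10. With arrays 3 and 4 turned the order changed, with Slc30a10 at -0.41 and Mtf1 at -0.16 lowest. Mt1 at 0.68 ± 5.42 and Mt2 at 0.73 ± 7.11 (SD, n = 4 arrays) were then highest. These SDs are large because the values then had opposite signs on the 2 pairs of arrays. Mt2 and Mt1 overlap in their array values, and so do all neighbours among the other 7 genes, whose array values ran from -1.27 to 0.76 and whose means ran from -0.51 to 0.15. No value of those 7 genes came near the -3.80 that was the highest array mean of Mt1. The count past limma's adjusted threshold was 2 of 9, both lower, against 0.168% of all genes called lower and 0.246% called in either direction. Below 0 on all 4 arrays were 3 of the 9, against 8.16% of all genes. Both counts come from the values that led to the list and support nothing.

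**Figure D2:**
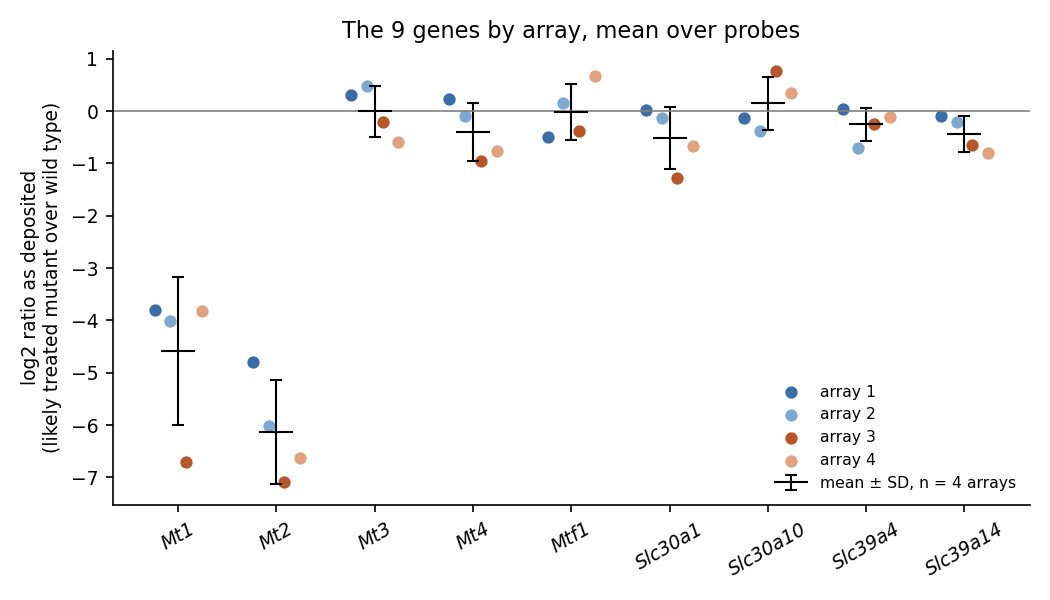
Log2 ratio as deposited (vertical axis) of the 9 genes (horizontal axis), as the mean over each gene's probes on arrays 1 to 4 (coloured points), with the mean ± SD of the 4 arrays in black. Mt1 and Mt2 lie between -7.09 and -3.80, and the other 7 genes between -1.27 and 0.76.

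**Figure D3:**
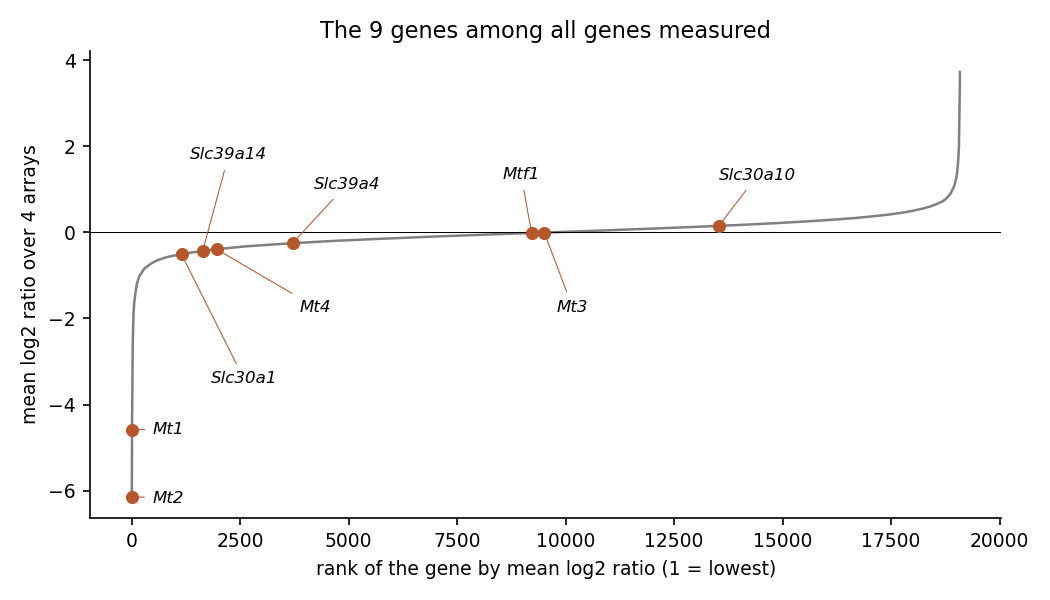
Mean log2 ratio over the 4 arrays (vertical axis) of all 19087 genes against their rank from the lowest (horizontal axis), with the 9 genes marked. Mt2 is at rank 1 and Mt1 at rank 6, and the other 7 lie between ranks 1148 and 13530.

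The genes were chosen by their means and not by the differences between the arrays, which were therefore tested. Earlier results of these data were known at that choice, and how far those reflected these differences was not tested. Arrays 1 and 3 share wild-type animal 2, so their difference lies between mutants and dyes, if the arrays run as deposited. From array 1 to array 3 the ratio went down by 2.29 for Mt2, and the value of array 3 minus array 1 was -2.91 for Mt1. Between arrays 2 and 4, which share wild-type animal 4, array 4 minus array 2 was -0.61 for Mt2 and 0.20 for Mt1. The gap between arrays of one wild-type animal was thus larger for animal 2 than for animal 4 in both genes.

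By dye, the mean ratio of Mt2 was -5.41 with the mutant in Cy5 and -6.86 with it in Cy3, a difference of 1.45 ± 0.52 (SE, n = 2 arrays each, limma's unadjusted p = 0.0340, adjusted p = 0.561). For Mt1 the means were -3.91 and -5.26, a difference of 1.35 ± 0.93 (limma's adjusted p = 0.650). For Mt4 the difference was 0.92 ± 0.36 (limma's unadjusted p = 0.0459, adjusted p = 0.563), for Slc30a1 0.92 ± 0.39 and for Mt3 0.79 ± 0.37. No gene of the 9 passed the adjusted threshold for the dye, nor did any of all 19087 genes (0% called). Still, 2 of the 9 and 8.82% of all genes had an unadjusted p under 0.05 in limma. After quantile normalization 0 of the 9 did, against 1772 of all genes. With dye and wild-type animal in 1 fit 0 of the 9 did, against 1477 of all genes. On both arrays with the mutant in Cy3, 5 of the 9 genes (Mt2, Mt3, Mt4, Slc30a1 and Slc39a14) read lower than on both arrays with it in Cy5, against 21.3% of all genes. Slc30a10 was the 1 gene that read higher on both, against 21.5% of all genes, with a difference of -0.81 ± 0.37 (limma's unadjusted p = 0.0757, adjusted p = 0.580). Genes share the arrays and are not replicates, so no test was made of these counts. The dye and the set of mutants on those arrays cannot be told apart.

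By wild-type animal, 0 of the 9 genes had an unadjusted p under 0.05 in limma, against 2.07% of all genes, and 0% of all genes passed the adjusted threshold. The arrays of animal 2 and animal 4 had means of -5.95 and -6.33 for Mt2, a difference of 0.38 ± 0.82 (SE, n = 2 arrays each, limma's adjusted p = 1). For Mt1 they were -5.25 and -3.92, a difference of -1.33 ± 0.96 (limma's adjusted p = 1). Mtf1 had means of -0.44 and 0.41, a difference of -0.85 ± 0.42 (limma's unadjusted p = 0.0937). None of these differences passed, and with 2 arrays on each side their errors are large.

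The cluster's neighbours on chromosome 8 did not share the ratios of Mt1 and Mt2. For 11 measured protein-coding genes around the 4 metallothionein genes, the means ran from -0.55 for Nlrc5 to 0.41 for Gnao1. Bbs2, which encodes a part of the BBSome complex of cilia and borders Mt4, had a mean of 0.01 ± 0.89 (SD, n = 4 arrays), and Nup93, which encodes a nuclear pore protein and borders Mt1, had a mean of -0.15 ± 0.94. None of the 11 passed limma's adjusted threshold, and 0 had an unadjusted p under 0.05, against 6.64% of all genes.

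**Figure D4:**
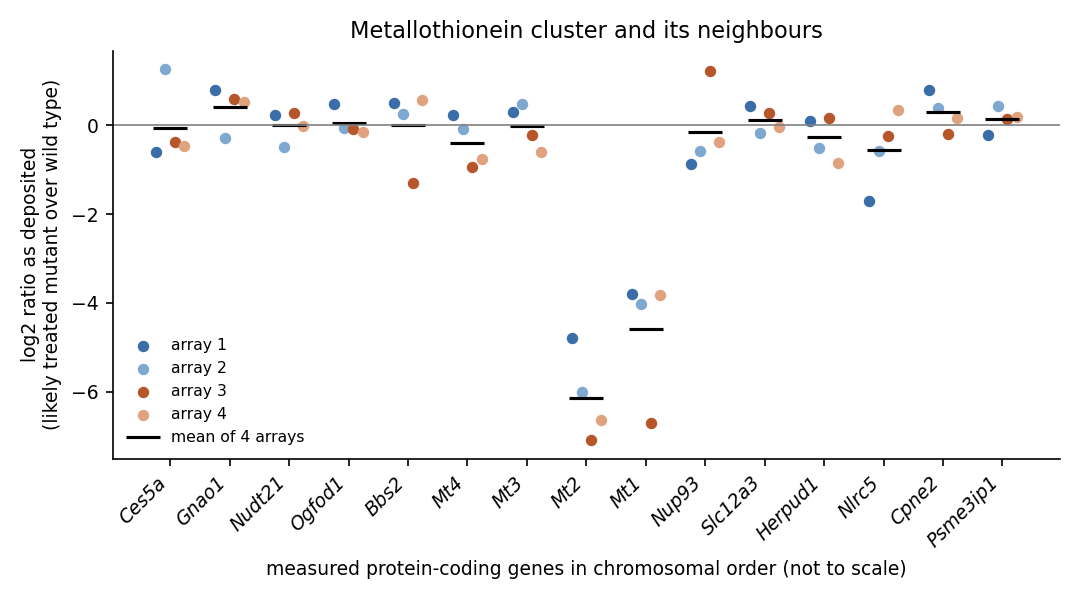
Log2 ratio as deposited (vertical axis) on arrays 1 to 4 (points) with their mean (black line) for the 4 metallothionein genes and 11 measured protein-coding genes around them, in chromosomal order (horizontal axis, not to scale). Mt2 and Mt1 lie between -7.09 and -3.80 while Mt4, Mt3 and the 11 measured neighbours lie between -1.71 and 1.26.

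The genes whose values over the 4 arrays were nearest to those of Mt2, by root mean square difference of log2 ratios, were Cyp4a14 at 1.00, A1bg at 1.38, Cyp17a1 at 1.56, Cyp4a10 at 1.92 and Cyp3a41a at 1.96. For comparison, Mt1 was 1.81 from Mt2. Cyp4a14, a fatty acid hydroxylase, read -3.03, -5.32, -7.67 and -6.78 on arrays 1 to 4 and had the same order of arrays as Mt2. The genes nearest to Mt1 were the steroid hydroxylase gene Cyp17a1 at 0.89, Cyp4a10 at 1.14, Igfbp1, an insulin-repressed gene, at 1.16, Cyp2b13 at 1.30 and Cyp3a41a at 1.31. Cyp3a41a, a cytochrome P450 gene, read -5.62, -4.21, -8.54 and -3.58 and, like Mt1, was lowest on array 3. All these points share the same 4 arrays, and any gene near Mt1 or Mt2 in this measure is one of the few with very low ratios.

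Other genes of metal handling and of the pathways known to induce metallothioneins were counted in 7 lists, of whose 93 genes 89 were measured. None of the 89 passed limma's adjusted threshold, against 0.246% of all genes, and 12 had an unadjusted p under 0.05, against 6.64% of all genes. The median over all genes was -0.00.

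Among the other zinc exporters, 0 of 8 passed, and the list median was 0.08. The lowest were Slc30a4 at -0.58 and Slc30a7 at -0.20, and the highest were Slc30a8, which loads insulin granules with zinc in pancreatic beta cells, at 0.29 and Slc30a5 at 0.45. Among the other zinc importers, 0 of 12 passed, and the median was -0.04. Slc39a13 stood at -0.28 and Slc39a1 at -0.25 at the low end, and Slc39a7 at 0.31 and Slc39a6 at 0.88 at the high end. The mean of Slc39a6 rests on a single spot value of 4.15 on array 2, and its other values lay between -0.49 and 0.09. Neither list had a gene with an unadjusted p under 0.05.

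Among copper handling genes, 0 of 12 passed, 1 had an unadjusted p under 0.05 in limma, and the median was -0.00. The copper-exporting ATPase genes Atp7b and Atp7a were lowest at -0.40 and -0.35, and the copper importer gene Slc31a1 at 0.45 and the cytochrome c oxidase assembly gene Cox11 at 0.48 were highest. Of 14 measured genes of iron handling, 0 passed, 2 had an unadjusted p under 0.05 in limma, and the median was 0.03. Hamp2, a hepcidin gene, stood at -1.92 ± 1.08 (SD, n = 4 arrays; limma's adjusted p = 0.215) and Hamp at -0.57, while the ferritin gene Fth1 stood at 0.43 and Tmprss6, whose protease restrains hepcidin, at 0.56. Hamp2 was below 0 on all 4 arrays, from -3.28 to -1.05.

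Of 12 measured glucocorticoid-responsive genes, 0 passed, and the median was -0.03. In limma 3 of these 12 had an unadjusted p under 0.05, against 6.64% of all genes. Fkbp5, which encodes a chaperone of the glucocorticoid receptor, stood at -1.27 ± 0.43 (SD, n = 4 arrays; limma's adjusted p = 0.128) and was below 0 on all 4 arrays. Klf9 stood at -0.79, and Tat and Ddit4 at the high end at 0.18 and 0.62. Of 23 acute phase and interleukin-6 genes, 0 passed, and the median was -0.07. In limma 5 of these 23 had an unadjusted p under 0.05, against the same 6.64% of all genes. Il6ra, the interleukin-6 receptor gene, stood at -1.35 ± 0.24 (limma's adjusted p = 0.0703), Lcn2 at -1.34, Hpx at 0.49 and Orm1 at 0.56. Of 9 measured genes of heavy metal and oxidative stress, 0 passed, 1 had an unadjusted p under 0.05 in limma, and the median was -0.06. Gsr, the glutathione reductase gene, stood at -0.61 ± 0.12 and Nqo1 at -0.39, and both Gclc at 0.01 and Gclm at 0.34 encode parts of the enzyme that limits glutathione synthesis.

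**Figure D5:**
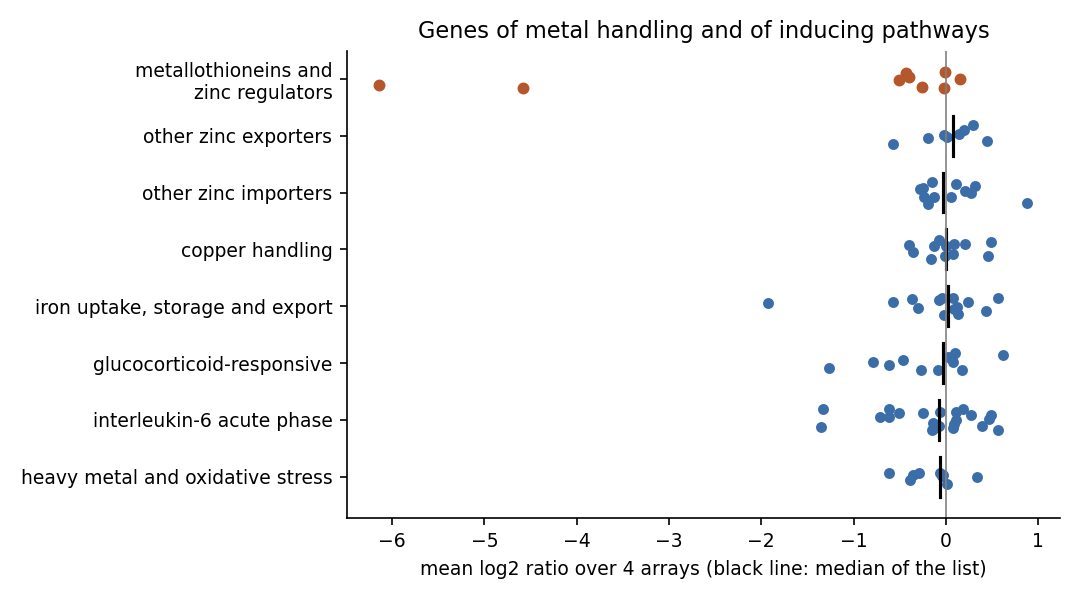
Mean log2 ratio over the 4 arrays (horizontal axis) of each gene in the 9-gene group (top row, orange) and in 7 lists of metal handling and inducing pathways (blue), with list medians as black lines. Mt2 at -6.14 and Mt1 at -4.58 lie apart from all listed genes, of which the lowest is Hamp2 at -1.92.

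Markers of cell types that a liver sample can hold were looked at beside these ratios. In 8 of 9 lists 0 genes passed limma's adjusted threshold, against 0.246% of all genes. In the remaining list, that of red blood cells, 1 of 4 measured markers passed, Alas2 at 2.44 ± 0.48 (SD, n = 4 arrays; limma's adjusted p = 0.0324), and the list mean ran from 0.72 to 1.39 over the arrays, with Slc4a1 lowest at 0.34. In limma 3 of 4 red blood cell and 3 of 6 hepatocyte markers had an unadjusted p under 0.05, against 6.64% of all genes. The Kupffer, endothelial, stellate, bile duct and lymphocyte lists had 1 such gene each, and the neutrophil and acinar lists had 0. The highest and lowest hepatocyte markers were Ass1 at 1.19 and Cyp2e1 at -0.63, and the list mean ran from 0.04 to 0.60 on the arrays. Lowest and highest were Vsig4 at -0.49 and Cd5l at 0.44 for Kupffer cells, Egfl7 at -0.71 and Tek at 0.33 for endothelial cells, and Lrat at -0.58 and Des at 0.09 for stellate cells. They were Epcam at -0.39 and Cdh1 at 0.72 for bile duct cells, Cd3e at -0.13 and Ighm at 0.57 for lymphocytes, and Mpo at -0.49 and S100a9 at 0.29 for neutrophils. For pancreatic acinar cells they were Amy2a5 at -0.35 and Cela1 at 0.39. The part of cell composition in the ratios of Mt1 and Mt2 was not tested, and in bulk liver fewer cells of a type and less RNA per cell cannot be told apart.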

How the data were processed

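Ratios of 43379 probes on 4 arrays were used as the authors deposited them, in log2 units, with 0 missing values. Their base was taken from limma, which the submitters' processing notes name, and from the range of the values. The labels give no background correction, normalization, filter or ratio direction. Platform annotation gave 1 gene symbol for 33653 probes, several for 56 and none for 9670, and probes of a symbol were averaged, giving 19087 genes. limma 3.58.1 in R 4.3.3 tested each gene's mean against 0, and coefficients for dye and wild-type animal, with Benjamini-Hochberg adjustment over all genes, after a check on simulated data. Replicates are 4 mutants against 2 wild-type animals, so p-values take too little account of the wild-type spread. Array number limits precision. Spots were placed on a layout of 85 columns, and a running median over 11 by 11 spots gave the spatial trend. Named genes were all members, the 5 nearest to Mt1 and to Mt2, the list genes past the threshold and the 2 highest and 2 lowest of each pathway list (1 and 1 for cell type lists). The 11 chromosomal neighbours were added afterwards. Members and lists were chosen with earlier results of these data known.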

Additional observations from a re-analysis of the deposited data

Results flagged for a closer look

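In 5 of 73 named genes 1 array lay apart from the rest by most of the gene's whole range, which chance alone gives in about 1 in 20. Mt1 read -6.70 on array 3 and -4.02 to -3.80 on the others. Slc39a6, a zinc importer gene with 1 probe, read 4.15 on array 2 and -0.49 to 0.09 elsewhere. S100a9, a neutrophil marker, read 0.89 on array 4 and -0.01 to 0.14 elsewhere. The chromosomal neighbours Ces5a and Ogfod1 read 1.26 on array 2 (others -0.61 to -0.38) and 0.48 on array 1 (others -0.15 to -0.06).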

How the results depend on the processing

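The comparison of treated mutants with wild types gave 47 genes past limma's threshold, and the count moved by over 1.5 times to 0 with arrays 3 and 4 turned, 15 with arrays scaled to the same spread, 122 with the spatial trend subtracted and 194 with a random block for the wild-type animal, whose estimated consensus correlation was negative at -0.37. Leaving out 1 array gave 0 to 34 genes, with 34 without array 1, 9 without array 3 and 0 without array 2 or array 4 (940 and 926 with an unadjusted p under 0.05). The turned arrays reversed the means of Mt1 (0.68 ± 5.42, SD) and Mt2 (0.73 ± 7.11, SD). They gave 0.40 for Mt3, 0.46 for Mt4, 0.46 for Slc30a1 and 0.28 for Slc39a14. Slc30a10 came to -0.41, Mtf1 to -0.16 and Slc39a4 to -0.08. Under the other alternatives, those chosen after seeing the data included, the mean of Mt1 ran from -5.20 (median over probes) to -2.53 (the 2 records averaged first) and that of Mt2 from -6.58 to -5.82. Limma's calls of Mt1 and Mt2 rest on the values that chose these genes. The call of Mt1 was lost without array 1, 2 or 4 (means of -4.85, -4.77 and -4.84), with the records averaged first and with arrays 3 and 4 turned, and that of Mt2 without array 2 or 4 (means of -6.18 and -5.97) and with arrays 3 and 4 turned. The other 7 genes passed under none of the alternatives run. Fkbp5 and Il6ra passed with the trend subtracted and with the random block of negative correlation, and Hamp2 with that block. The counts for dye and wild-type animal were 0 under every alternative run for them. No paired analysis was possible because the replicate numbers name 4 different mutants of 1 group, with no second group to pair them with, and the shared wild-type animals entered as the random block. Without intensities, signal over background and a filter on dim probes could not be examined.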
